A study of Mus musculus with 14 samples.

Results

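MHCII-low cells from mouse lung were compared 4 weeks after bleomycin with the same sorted cells from control lungs. The comparison covered 15199 of the 43432 genes in the table, namely those reaching 10 normalized counts in 2 or more of the 5 libraries. A normalized count is a read count divided by a library's scale factor. The 4-week group had 3 libraries (replicates 1, 2 and 3) and the control group 2 (replicates 1 and 3), out of 14 libraries in all. All cells came from male mice of the 129S1 strain aged 10 to 12 weeks, with no genetic change named in the labels. The 4-week mice had bleomycin at a labelled 3 U/k instilled into the trachea, and the control mice had water. Lung cells were stained for SiglecF, CD11c and MHCII and sorted on either of 2 sorter models; the labels do not say which library went through which. The labels number the replicates without naming a mouse for each, so the spread between libraries may be technical. In the main fit the p-values rest on the spread within groups over all 14 libraries, not over the 5 compared alone. MHCII-low cells 2 weeks after bleomycin (3 libraries) are used below to set the 4-week values in time, and MHCII-high cells at 4 weeks (3 libraries) to set them against the other side of the sort.

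Alveolar macrophages live in the air spaces, where they clear surfactant lipid and inhaled particles, and they carry SiglecF and CD11c on their surface. Bleomycin breaks DNA, injures the alveolar epithelium and leads to a fibrosis that can partly resolve with time. During that injury monocytes enter the air spaces and can become macrophages, which at first keep monocyte-lineage transcripts and carry more MHC class II than resident cells. MHC class II molecules present peptides to helper T cells.

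The sorted cells carried the transcripts that define alveolar macrophages. Siglecf was read at 9550.6, 7205.0 and 8156.1 normalized counts at 4 weeks and at 6460.9 and 7033.6 in controls, and Itgax, which encodes CD11c, at 33422.5, 28614.2 and 33021.1 against 29823.3 and 29931.0. Neither passed the test (limma log2 fold changes of 0.29 ± 0.17 and 0.08 ± 0.17, adjusted p 0.84 and 0.97; here and below ± after a fold change is the standard error). Per kilobase of exon, the control level of Siglecf lay at the 97.2th percentile of the genes tested, that of Itgax at the 99.3th, and those of Chil3 and Lyz2 at the 100th. The 10 defining markers summed to 1209340 to 1451857 normalized counts at 4 weeks and 990462 to 1026261 in controls. Recovered reads numbered 29348456 to 39905278 in the 4-week libraries and 45064657 to 88059630 in the controls. Mitochondrial ribosomal RNA took 3.12% to 23.15% of reads at 4 weeks, with replicate 2 highest, and 21.67% and 24.08% in controls. Over all genes, Spearman correlations between libraries were 0.962 to 0.974 within a group and 0.952 to 0.971 between the groups, and these ranges overlap.

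Few single genes stood apart from control at 4 weeks. With an adjusted p of 0.05 or less as the threshold in limma, 5 genes rose (0.0329% of the genes tested) and 0 fell (0%). Those described here are Lrg1, Pianp, H2-Ab1 and Cd63. At an unadjusted p under 0.05, 539 genes were higher (3.55%) and 430 lower (2.83%), which together is 969. The counts of each list at that p, given below, are to be read beside these shares. All 3 4-week libraries lay above both controls for 1946 genes (12.8%) and below both for 2422 (15.9%). Other tools gave other counts: edgeR called 2 genes higher and 0 lower, DESeq2 52 higher and 14 lower, and voom 0 higher and 4 lower, and quantile normalization before limma gave 18 higher and 4 lower. The median log2 fold change over all genes was -0.04. Since these are bulk samples, a change in the number of cells of 1 kind and a change in RNA per cell cannot be told apart.

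**Figure D1:**
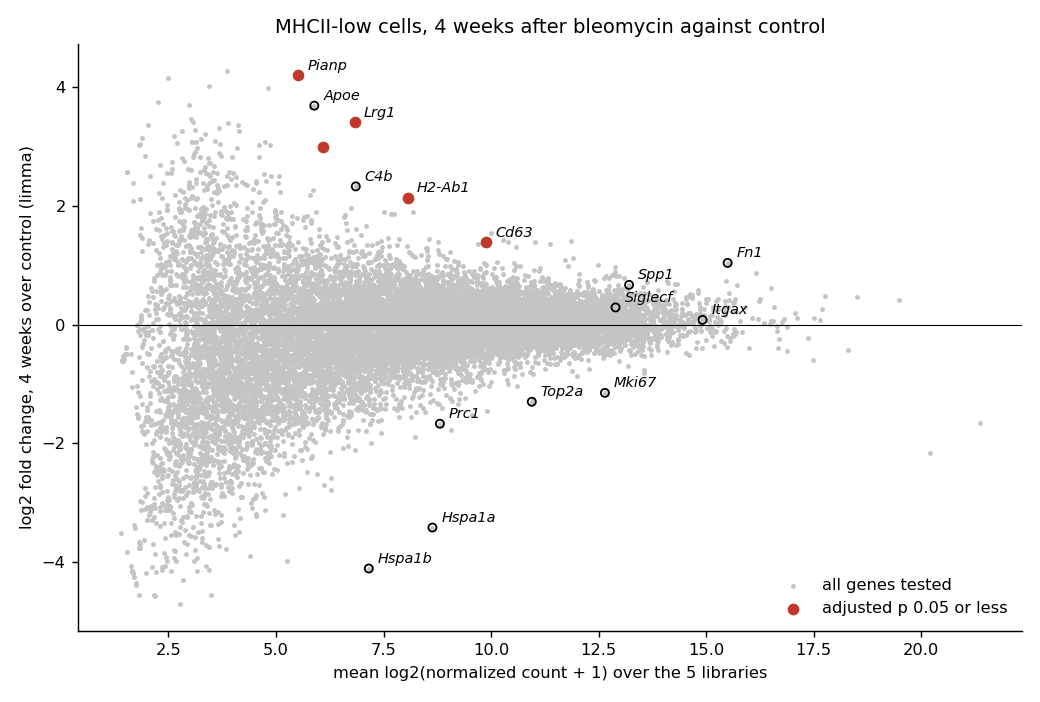
Log2 fold change of each of the 15199 genes (4 weeks over control, limma) against its mean log2(normalized count + 1) over the 5 libraries; red points passed an adjusted p of 0.05, open circles mark other named genes. The 5 genes that passed lie above 0, from 1.39 (Cd63) to 4.20 (Pianp), while Hspa1b at -4.11 and Hspa1a at -3.42 lie below and did not pass.

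Monocyte-derived or interstitial macrophage genes went in both directions. Of the 19 tested genes of that list, 4 were higher and 1 lower at an unadjusted p under 0.05. Over all genes tested, the shares were 3.55% and 2.83%. In the list 12 had a fold change above 0 and 7 below, and the median was 0.20. All 3 4-week libraries lay above both controls for 4 and below both for 2, beside 12.8% and 15.9% of all genes tested. Fold changes ran from -1.51 to 3.69, the highest being that of Apoe, described below. The complement subunit C1qc was read at 24.9, 24.5 and 109.8 at 4 weeks and at 11.3 and 12.9 in controls (log2 fold change 1.68 ± 0.62, adjusted p 0.63). C1qb overlapped between the groups, at 9.4, 23.5 and 142.9 against 12.1 and 1.7, with replicate 3 high. Ccr2, the chemokine receptor of classical monocytes, was at 549.7, 648.0 and 669.5 against 726.1 and 639.7, so its groups overlapped too. Cx3cr1, a fractalkine receptor, was lower in all 3 4-week libraries, at 54.0, 32.4 and 11.7 against 105.6 and 61.1 (-1.51 ± 0.52, adjusted p 0.61). C1qa, Ly6c2, Cd163 and Plac8 were too low to be tested.

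Lrg1 encodes a secreted leucine-rich glycoprotein of the acute phase, known as a target of IL-6 and STAT3 signalling (chromosome 17, 56119680 to 56121946, reverse strand). It was read at 351.6, 211.8 and 335.8 normalized counts at 4 weeks and at 35.4 and 19.8 in controls (log2 fold change 3.41 ± 0.43, adjusted p 0.0012). Every 4-week library was well above both controls. The 2-week libraries held 1476.7, 853.5 and 2006.4, and the 4-week minus 2-week difference was -2.22 ± 0.39 (adjusted p 0.0037). Lrg1 at 4 weeks was at 77.1% of its mean in MHCII-high cells of the same time (389 ± 160, SD, n = 3). Its call was lost without control replicate 3 (3.01, adjusted p 0.086).

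Lrg1 was the 1 of 14 tested genes of the acute-phase and STAT3-linked list that passed in limma. In the list 4 genes were higher and 0 lower at an unadjusted p under 0.05, beside 3.55% and 2.83% of all genes tested. The list median was 0.21. The IL-4 receptor chain Il4ra was read at 10126.9, 6094.2 and 7716.9 against 4555.6 and 4489.6 (0.79 ± 0.20, adjusted p 0.26), all 3 above both controls, and DESeq2 called it. Hp, which encodes haptoglobin, was at 540.3, 342.2 and 301.7 against 243.1 and 95.6 (1.32 ± 0.62, adjusted p 0.76). Stat3 itself overlapped, at 14297.2, 13075.7 and 12168.1 against 9825.3 and 12458.1.

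Pianp encodes a membrane protein that binds the paired immunoglobulin-like receptor PILR-alpha (chromosome 6, 124996694 to 125003096, forward strand). Its values were 162.1, 94.1 and 204.7 at 4 weeks and 16.8 and 2.6 in controls, with a log2 fold change of 4.20 ± 0.63 (adjusted p 0.01). The lower control value rests on 3 reads, so the size of this fold is uncertain although the groups do not overlap. Pianp was not called in a limma fit of only the 5 libraries compared, nor with edgeR or voom. At 2 weeks Pianp was at 380.4, 152.9 and 167.4, and the 4-week minus 2-week difference of -0.54 ± 0.57 did not pass (adjusted p 0.96). Leaving out control replicate 3 gave 3.05 (adjusted p 0.32), leaving out 4-week replicate 1 gave 4.13 (0.054), and leaving out 4-week replicate 3 gave 3.96 (0.076).

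Cd63 encodes a tetraspanin of late endosomes and lysosomes (chromosome 10, 128908919 to 128912816, forward strand). It was read at 1178.3, 1220.6 and 1855.1 at 4 weeks and at 472.9 and 592.3 in controls (1.39 ± 0.24, adjusted p 0.03), and at 3443.4, 2594.0 and 4241.4 at 2 weeks. The 3 groups did not overlap, and the 4-week level was below the 2-week level by the direct test (-1.28 ± 0.21, adjusted p 0.0022). Against control, Cd63 was not called in a limma fit of only the 5 libraries compared, nor with edgeR or voom. The call against control was lost without 4-week replicate 2 (adjusted p 0.059) or 3 (0.2) and without control replicate 1 (0.31) or 3 (0.13).

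Cd63 belongs to a list of profibrotic or lipid-associated macrophage genes, of which 25 were tested. In that list 1 gene rose, and 10 were higher and 0 lower at an unadjusted p under 0.05. In all 3 4-week libraries 11 lay above both controls and 1 below, beside 12.8% and 15.9% of all genes tested. The median log2 fold change was 0.36. Fn1, which encodes fibronectin, was at 57652.9, 58146.0 and 70256.8 against 27740.5 and 32671.2 (1.04 ± 0.24, adjusted p 0.20). Spp1, which encodes osteopontin, was at 8523.3, 12319.8 and 14053.1 against 6964.1 and 7388.3 (0.67 ± 0.25, adjusted p 0.63). For both genes the groups did not overlap, and neither passed in limma. DESeq2 called Fn1 (adjusted p 0.0047) and Cd63, the replicate block also called Fn1 (0.029), and edgeR and voom called 0 of the list. Mmp12, the macrophage elastase, was at 1276.9, 1892.2 and 3256.1 against 994.1 and 576.8 (1.39 ± 0.33, adjusted p 0.20). Trem2, a lipid-sensing receptor, was at 3082.9, 2267.7 and 3063.1 against 1906.4 and 1735.6 (0.61 ± 0.23, adjusted p 0.63). The growth factor genes Pdgfa and Vegfa and the lipase gene Lpl overlapped between the groups, with log2 fold changes of 0.20, -0.07 and 0.01.

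H2-Ab1 was the member of the MHC class II list that passed. It encodes the beta chain of the class II molecule I-A (chromosome 17, 34263209 to 34269418, forward strand) and was read at 569.4, 338.2 and 581.1 at 4 weeks and at 99.7 and 117.9 in controls (2.14 ± 0.35, adjusted p 0.021). All 3 4-week libraries were well above both controls. The partner alpha chain H2-Aa was at 409.9, 381.4 and 778.3 against 127.8 and 136.9 (1.90 ± 0.37, adjusted p 0.073). Cd74, the invariant chain that escorts class II molecules, was at 2918.3, 2292.2 and 4372.3 against 1012.8 and 1352.5 (1.40 ± 0.38, adjusted p 0.32). Ciita, the coactivator that drives class II transcription, was low, at 73.8, 93.1 and 86.4 against 38.6 and 52.5 (0.89 ± 0.36, adjusted p 0.70).

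The peptide-exchange chains H2-DMa, H2-DMb1 and H2-DMb2 had log2 fold changes of 0.83, 0.96 and 0.67, with all 4-week libraries above both controls; the last pair are close copies whose reads may be split between them. In all, 7 of the 12 tested class II genes were higher and 0 lower at an unadjusted p under 0.05. All 3 4-week libraries lay above both controls for 7 and below both for 0, beside 12.8% and 15.9% of all genes tested. The list median was 0.78. DESeq2 called H2-Aa, H2-Ab1 and H2-DMb1, and edgeR and voom called 0 of the list. The list median was 1.15, 0.59 and 0.84 above the control mean in 4-week replicates 1, 2 and 3. H2-Eb1, the beta chain of the other class II molecule, overlapped, at 48.9, 6.9 and 125.8 against a control mean of 21.4 ± 2.26 (SD, n = 2; 0.72 ± 0.77, limma adjusted p 0.92). Its fold change was -0.17 without 4-week replicate 3 and 1.83 without replicate 2. Rfx5, Rfxap and Rfxank, which encode the factor that binds class II promoters, had fold changes of 0.22, 0.08 and -0.05.

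These class II levels remained low beside MHCII-high cells. At 4 weeks the MHCII-low mean was 3.58% of the MHCII-high mean for H2-Ab1, 2.42% for H2-Aa, 3.27% for Cd74 and 1.23% for H2-Eb1. Expressed in the same way, the increase over control was 2.79% of the MHCII-high mean for H2-Ab1, 1.81% for H2-Aa, 2.06% for Cd74, 1.56% for C1qc and 3.17% for C1qb. It was 17.8% for Pianp, 44.1% for Cd63, 45.1% for C4b and 70.0% for Lrg1. Ccr2 and Cx3cr1 went the other way, at -1.85% and -4.78%. The part of cells near the sort boundary in these increases was not tested. H2-Ab1 was not called in a limma fit of only the 8 MHCII-low libraries, nor with edgeR or voom. The call of H2-Ab1 was lost without 4-week replicate 1 (adjusted p 0.075) or 3 (0.14) and without control replicate 1 (0.27) or 3 (0.14).

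The 250 bases before the start of H2-Aa and H2-Eb1 are shown because both hold the letters of the Y box, CTGATTGG, a class II promoter element (in capitals below), and both encode chains of class II molecules. The windows are chr17:34287824-34288073 on the reverse strand and chr17:34305617-34305866 on the forward strand (RefSeq, GRCm38.p6), each written 5′ to 3′.
H2-Aa: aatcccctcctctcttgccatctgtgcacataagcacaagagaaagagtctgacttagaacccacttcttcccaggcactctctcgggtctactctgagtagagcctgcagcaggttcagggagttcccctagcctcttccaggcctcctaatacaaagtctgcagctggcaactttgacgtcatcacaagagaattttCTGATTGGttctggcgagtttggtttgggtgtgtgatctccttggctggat
H2-Eb1: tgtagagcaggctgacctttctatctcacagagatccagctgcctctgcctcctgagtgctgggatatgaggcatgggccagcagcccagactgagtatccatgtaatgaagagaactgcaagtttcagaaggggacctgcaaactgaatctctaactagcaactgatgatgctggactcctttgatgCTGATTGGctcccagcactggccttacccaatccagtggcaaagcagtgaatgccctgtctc
The motif begins 51 bases before the start in H2-Aa and 62 bases before it in H2-Eb1. Searched on both strands, CTGATTGG occurs in 1258 of 32851 windows of this length (3.83%) and in 4 of the 10 class II genes with a window. It also occurs in 4 of the 14 heat shock and chaperone genes with a window, among them Hspa1a and Hspa1b. H2-Ab1 had no entry.

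A pair of heat shock genes was far below control at 4 weeks and narrowly missed the threshold. Hspa1b and Hspa1a encode the stress-inducible HSP70 chaperone and lie close together (chromosome 17, 34956436 to 34959238 and 34969190 to 34972156, both reverse strand). Hspa1b was read at 37.7, 16.7 and 138.6 at 4 weeks and at 666.9 and 928.9 in controls (-4.11 ± 0.74, adjusted p 0.051). Hspa1a was read at 126.9, 76.5 and 368.9 against 1480.2 and 1838.9 (-3.42 ± 0.64, adjusted p 0.058). Both controls were several times above every 4-week library, and 4-week replicate 3 was the highest of its group for both genes. At 2 weeks Hspa1b was at 82.8, 78.0 and 47.9 and Hspa1a at 152.1, 361.5 and 142.1, and neither differed from 4 weeks by the test (adjusted p 0.97 and 0.99).

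The copies share much of their sequence, so reads may be divided between them and each value is uncertain. Of the 50-base windows of the Hspa1a transcript, 58.8% also occur in Hspa1b. The 250 bases before their starts differ at 3 positions and both hold GAANNTTC, the letters of 2 inverted heat shock element units, in capitals below, so the pair is shown. They lie at chr17:34972157-34972406 and chr17:34959239-34959488, on the reverse strand (RefSeq, GRCm38.p6).
Hspa1a: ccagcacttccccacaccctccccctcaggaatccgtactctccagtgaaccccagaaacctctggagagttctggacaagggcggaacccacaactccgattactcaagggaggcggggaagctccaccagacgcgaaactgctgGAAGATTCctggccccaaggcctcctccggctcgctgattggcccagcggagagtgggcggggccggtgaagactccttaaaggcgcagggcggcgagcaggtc
Hspa1b: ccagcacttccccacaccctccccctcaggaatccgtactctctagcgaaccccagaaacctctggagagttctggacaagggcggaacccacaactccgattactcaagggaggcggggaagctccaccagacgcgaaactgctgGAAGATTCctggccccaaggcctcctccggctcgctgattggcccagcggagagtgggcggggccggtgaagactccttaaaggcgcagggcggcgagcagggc
The motif begins 104 bases before each start. GAANNTTC reads the same on both strands and occurs in 2199 of the 32851 windows (6.69%), among them those of 6 of the 14 heat shock and chaperone genes with a window. It also occurs in 2 of the 10 class II genes with a window, H2-Aa and H2-Eb2. The windows of Hspa1a and Hspa1b hold CTGATTGG too, left in lower case above.

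Other chaperone genes differed less. Among the 19 tested genes of the list, 0 passed in limma or edgeR, 2 were lower with voom (Hspa1a and Hspa1b) and 3 with DESeq2 (these and Hsp90aa1). By limma, 0 were higher and 4 lower at an unadjusted p under 0.05, and the median was -0.12. In all 3 4-week libraries 5 lay below both controls and 0 above, beside 15.9% and 12.8% of all genes tested. Hsp90aa1, the inducible cytosolic HSP90, was at 992.2, 1293.2 and 1210.1 against 2483.3 and 2275.4 (-1.04 ± 0.23, adjusted p 0.16). Dnaja1, an HSP40 co-chaperone, was at 622.6, 1406.9 and 1205.8 against 1938.3 and 1962.9 (-0.94 ± 0.33, adjusted p 0.63). The constitutive Hspa8 and Hsp90ab1, the endoplasmic reticulum chaperone Hspa5 and the regulator Hsf1 overlapped between the groups, with fold changes of 0.12, -0.12, -0.17 and 0.08. Immediate early genes, which respond quickly to handling and stress, had a median of -0.22. Of 16 tested, 0 were higher and 3 lower at an unadjusted p under 0.05, beside 3.55% and 2.83% of all genes tested. The 3 were Btg2, Atf3 and Egr1. Btg2 was at 2998.0, 2954.0 and 3005.5 against 5792.4 and 3758.7 (-0.64 ± 0.23, adjusted p 0.63), and the control replicates differed from each other by a list median of 0.51.

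**Figure D2:**
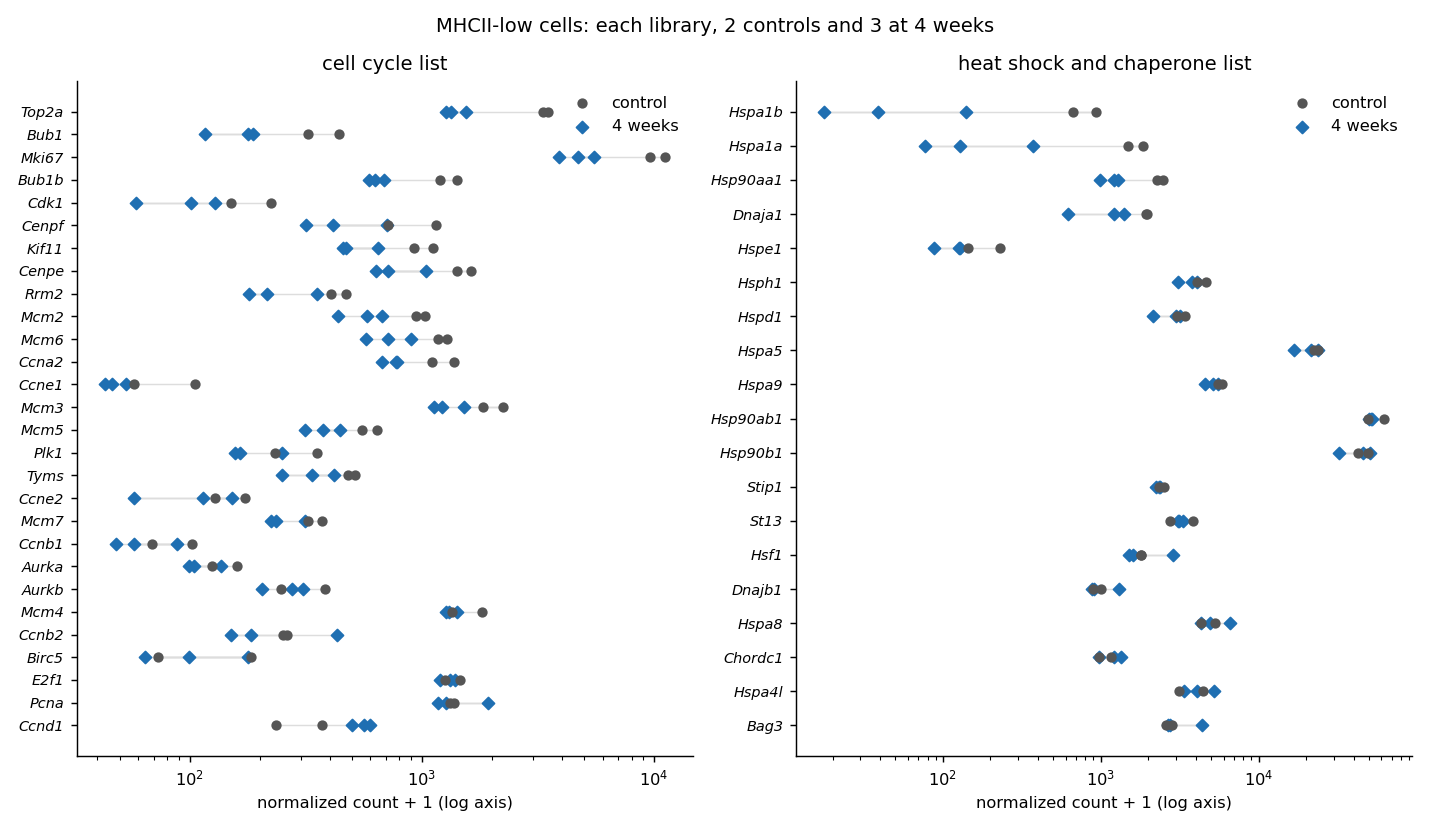
Normalized count + 1 (log axis) of each tested gene of the cell cycle list (left, 28 genes) and the heat shock and chaperone list (right, 19 genes) in 2 control libraries (circles) and 3 4-week libraries (diamonds), ordered by fold change. For 17 of the 28 cell cycle genes all diamonds lie to the left of both circles, and on the right the separation is widest for Hspa1b and Hspa1a.

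Cell cycle genes were mostly lower at 4 weeks, and 0 of them passed in limma with all 14 libraries, edgeR or voom. DESeq2 called Top2a and Mki67 lower, as did limma in a fit of the 8 MHCII-low libraries (adjusted p 0.04 for each), and Top2a also passed in a fit of the 5 libraries (0.049) and without 4-week MHCII-high replicate 3 (0.037). Of 28 tested genes 26 had a fold change below 0 and 2 above. At an unadjusted p under 0.05, 9 were lower and 1 higher. In all 3 4-week libraries 17 lay below both controls and 1 above, beside 15.9% and 12.8% of all genes tested. The 9 became 5 without control replicate 1, and 6 without control replicate 3 or 4-week replicate 3. The median was -0.66, beside -0.04 over all genes, and in 4-week replicates 1, 2 and 3 it was -0.55, -0.61 and -0.83 from the control mean. The control replicates differed from each other by a median of 0.23. Top2a, the topoisomerase that untangles replicated DNA, was at 1336.1, 1540.2 and 1263.4 against 3306.0 and 3478.0 (-1.30 ± 0.34, adjusted p 0.31). Mki67, which encodes the proliferation antigen Ki-67, was at 4720.9, 5507.0 and 3894.7 against 11127.9 and 9617.1 (-1.15 ± 0.31, adjusted p 0.31). Both controls were above all 3 4-week libraries for both genes.

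Genes of different cycle phases were among those lower. The replicative helicase genes Mcm2 and Mcm3 had log2 fold changes of -0.83 ± 0.29 and -0.66 ± 0.20 (adjusted p 0.62 and 0.50). The spindle checkpoint kinase gene Bub1b was at 626.9, 682.4 and 588.5 against 1417.1 and 1190.6, and the mitotic motor gene Kif11 at 471.7, 644.1 and 457.4 against 1114.9 and 922.0. Prc1, which bundles microtubules of the central spindle and was not in the list, was at 238.4, 319.6 and 293.2 against 888.1 and 908.3 (-1.67 ± 0.33, adjusted p 0.073). It was called in 6 of 21 alternatives, among them DESeq2, voom and quantile normalization, and not with edgeR or with any of the 5 libraries left out. Pcna and E2f1 overlapped, with fold changes of 0.07 and -0.06. Ccnd1, which encodes the G1 cyclin D1, was on the other side, at 500.0, 597.1 and 561.9 against 234.1 and 371.0 (0.90 ± 0.40, adjusted p 0.74). By the direct test 0 of the 28 genes passed between 4 and 2 weeks in limma, edgeR, DESeq2 or voom, 1 was higher at 4 weeks and 0 lower at an unadjusted p under 0.05 in limma, and the median 4-week minus 2-week difference was -0.08.

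Several further genes met the rule for large differences (a mean of at least 50 normalized counts, no overlap and an unadjusted p under 0.01) without passing in limma with all 14 libraries. DESeq2 and quantile normalization called C4b, Pla2g2d and Stard13, and C4b also passed with a filter at 50 normalized counts and in the fit of the 8 MHCII-low libraries (adjusted p 0.019). Complement C4b was at 218.7, 210.8 and 231.4 against 53.4 and 34.4 (2.33 ± 0.45, adjusted p 0.068); its close copy C4a may share its reads. Apoe, which encodes a lipid-carrying apolipoprotein, was at 181.8, 76.5 and 317.7 against 44.4 and 2.6 (3.69 ± 0.78, adjusted p 0.15). The lower control value of Apoe rests on 3 reads: its fold change was 1.86 without control replicate 3 (adjusted p 1) and 5.52 without control replicate 1 (0.0026). Pla2g2d, a secreted phospholipase, was at 54.0, 168.6 and 398.7 against 3.9 and 29.3 (3.67 ± 0.79, adjusted p 0.16). In each of these the lowest 4-week library was above the higher control. Stard13 and Zfp775 had log2 fold changes of 2.27 ± 0.51 and 3.98 ± 1.02 (adjusted p 0.17 and 0.27), and control replicate 3 held 0 reads of Zfp775. On the lower side were Fgf7, a growth factor for epithelium (4.3, 32.4 and 1.1 against 83.0 and 136.9), and Trpm2, a calcium-permeable channel (50.6, 24.5 and 21.3 against 118.4 and 169.6). Hypk, Mthfd2 and Nupr1l had fold changes of -1.78, -1.56 and -2.76 (adjusted p 0.49, 0.61 and 0.57).

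Resident alveolar macrophage genes had a median close to that of all genes. In this list and in the lists of the next 3 paragraphs, 0 genes passed against control in limma, edgeR, DESeq2 or voom. Of 24 resident genes tested, 2 were higher and 1 lower at an unadjusted p under 0.05 in limma, and the median was 0.11. Over all genes tested, 3.55% were higher and 2.83% lower at that p. DESeq2 and voom each gave 5 resident genes higher and 1 lower at that p. In the list 18 had a fold change above 0 and 6 below. All 3 4-week libraries lay above both controls for 6 and below both for 2, beside 12.8% and 15.9% of all genes tested. Pparg, the nuclear receptor that maintains the alveolar macrophage state, was at 9312.2, 9603.1 and 9578.4 against 7261.7 and 5938.5 (0.53 ± 0.16, adjusted p 0.43). Fabp4, a fatty acid-binding protein, was at 691.2, 584.3 and 747.4 against 1590.1 and 1037.4 (-0.94 ± 0.43, adjusted p 0.76). Their groups did not overlap, in opposite directions. Mrc1, Car4, Plet1 and Bhlhe40 overlapped, with fold changes of 0.10, -0.03, 0.08 and 0.08.

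Cholesterol synthesis and uptake genes were slightly above control. All 3 4-week libraries lay above both controls for 12 of the 20 tested, beside 12.8% of all genes tested. In the list 19 had a fold change above 0, and the median was 0.46. At an unadjusted p under 0.05, 5 were higher and 0 lower. The 5 became 2 without control replicate 1, 3 without control replicate 3 or 4-week replicate 2, and 12 with the share of mitochondrial ribosomal RNA as a covariate. Dhcr7, a reductase of the last step of synthesis, was at 3754.4, 2988.3 and 2826.4 against 2044.7 and 1745.0 (0.74 ± 0.24, adjusted p 0.50). Each 4-week library exceeded both controls. Sqle, the squalene epoxidase, overlapped, at 1692.0, 2063.8 and 1455.3 against 1115.6 and 1624.5 (0.35 ± 0.22, adjusted p 0.85). Among sterol efflux and LXR target genes the median was 0.33 over 10 genes, and Nr1h3, which encodes LXR-alpha, was at 894.4, 637.3 and 762.3 against 368.1 and 352.1 (1.07 ± 0.41, adjusted p 0.66).

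Inflammatory cytokine and chemokine genes included 3 that were lower and 0 that were higher at an unadjusted p under 0.05 among 18 tested. Over all genes tested, 2.83% were lower and 3.55% higher. The list median was -0.23. The 3 lower genes were the chemokine gene Ccl3 (265.8, 318.6 and 662.1 against 1127.7 and 781.7), Tnf (825.0, 495.1 and 624.8 against 1297.2 and 1050.3) and Il1a (250.4, 512.8 and 562.9 against 708.6 and 878.1). Their log2 fold changes were -1.29, -0.88 and -0.92, with adjusted p of 0.50, 0.50 and 0.63. All 4-week libraries were below both controls for each. Interferon-stimulated genes had a median of 0.10 over 26 genes. Of these, 1 was higher and 2 lower at an unadjusted p under 0.05, beside 3.55% and 2.83% of all genes tested. The antiviral GTPase gene Mx2 was at 10.3, 6.9 and 23.5 against 40.5 and 126.6, and Rtp4 at 6.9, 26.5 and 20.3 against 35.4 and 127.4. Stat2, a signal transducer of the interferon receptor, was at 4685.7, 4394.2 and 4816.9 against 2858.0 and 3943.8. Their adjusted p were 0.61, 0.66 and 0.68, with the groups apart in each, downward for the first pair and upward for Stat2. Among the 26, all 3 4-week libraries lay above both controls for 6 genes and below both for 4. Over all genes tested, these shares were 12.8% and 15.9%.

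The class I presentation list had a median of 0.22 over 13 genes, with Tapbp, the peptide-loading factor tapasin, at 7315.0, 4762.8 and 4906.5 against 3680.0 and 4059.2 (0.52 ± 0.22, adjusted p 0.70) and the class I heavy chain gene H2-D1 at 0.49 ± 0.21 (adjusted p 0.72; related class I genes may share its reads). The p53 and DNA damage list, relevant to a drug that breaks DNA, had a median of -0.16 over 16 genes. Over all genes tested, 3.55% were higher and 2.83% lower at an unadjusted p under 0.05. In this list 0 were higher and 1 lower. That gene was Plk2, a stress-induced kinase, at 294.1, 225.5 and 184.4 against 604.6 and 401.2 (-1.09 ± 0.35, adjusted p 0.50), and Gadd45a was at -1.20 ± 0.61 (adjusted p 0.80). The NRF2 antioxidant list had a median of 0.04 over 13 genes; G6pdx, the entry enzyme of the pentose phosphate pathway, was at 0.42 ± 0.19 (adjusted p 0.74) and Prdx1 at 0.38 ± 0.21 (adjusted p 0.82).

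**Figure D3:**
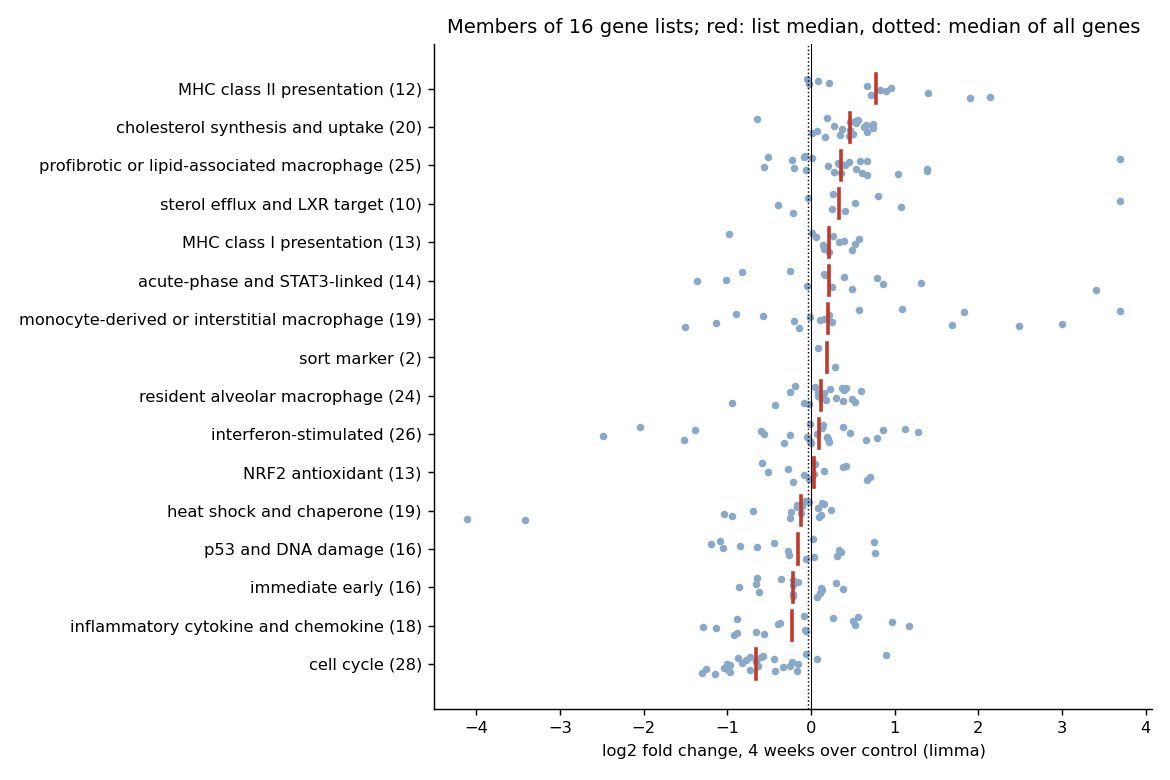
Log2 fold change (4 weeks over control, limma) of each tested member of 16 gene lists (points; number tested in brackets), with the list median (red bar) and the median of all 15199 genes (dotted line). The MHC class II median is highest at 0.78 and the cell cycle median lowest at -0.66.

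Where the 4-week cells stood between control and the earlier time was read from the direct 4-week minus 2-week contrast. Its difference takes no control value, but the controls entered the spread estimated in the fit of all 14 libraries. The genes were chosen on the 4-week and control libraries, so genes read only at 2 weeks were not tested. In limma 19 genes were higher at 4 weeks (0.125% of those tested) and 125 lower (0.822%). A limma fit of the 8 MHCII-low libraries gave 73 higher and 136 lower, and DESeq2 75 higher and 222 lower. Cholesterol genes made up a visible part of the lower genes: 15 of the 20 tested fell, with a list median of -1.60. Sqle was at 9430.7, 8809.0 and 10531.6 at 2 weeks and at the values above at 4 weeks (-2.48 ± 0.20, adjusted p 6.1e-07). The time groups were fully separated.

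Profibrotic genes followed, with 9 of 25 lower at 4 than at 2 weeks and 0 higher, beside 0.822% and 0.125% of all genes tested. Spp1 was at 105619.8, 79824.1 and 101919.9 at 2 weeks, against 8523.3 to 14053.1 at 4 weeks (-3.06 ± 0.22, adjusted p 1.9e-07). Fn1 was at 196439.1, 201037.2 and 242793.4 at 2 weeks, against 57652.9 to 70256.8 at 4 weeks (-1.78 ± 0.22, adjusted p 8e-05). For both, the 4-week values lay closer to the control values than to the 2-week ones. The integrin gene Itgam, which encodes CD11b, fell by 1.96 ± 0.31 (adjusted p 0.0015), and Socs3, a feedback inhibitor of STAT3, by 1.94 ± 0.31 (adjusted p 0.0018). Of the 12 class II genes 0 passed between the times in limma, edgeR, DESeq2 or voom, and 4 were lower at 4 weeks at an unadjusted p under 0.05. Of the 19 chaperone genes 0 passed in limma or edgeR, DESeq2 and voom called 1 lower each, and 1 was lower at an unadjusted p under 0.05. For example, H2-Ab1 was at 897.2, 422.0 and 1276.3 at 2 weeks (-0.70 ± 0.31, adjusted p 0.56), and its groups overlapped. A p that misses the threshold does not show that those levels were equal.

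Resident alveolar macrophage and sterol efflux genes went both ways between the times. Of 24 resident genes limma called 2 higher at 4 weeks (Ear1 and Fabp1) and 1 lower (Car4), with a list median of -0.13. Over all genes tested, limma called 0.125% higher and 0.822% lower. At an unadjusted p under 0.05, 4 resident genes were higher and 5 lower in limma. DESeq2 called 2 higher and 3 lower (Car4, Bhlhe41 and Csf2rb), and voom 2 higher and 2 lower (Car4 and Csf2rb). Of 10 sterol efflux and LXR target genes limma called 2 higher (Abca1 and Mylip) and 1 lower (Scd2), with a median of 0.00. DESeq2 and voom each called 3 of these higher, with Abcg1 added, and 1 lower. Abca1, the cholesterol efflux transporter, rose from 3456.8, 3469.8 and 2781.7 to 7326.1, 6486.4 and 6653.9 (1.08 ± 0.17, adjusted p 0.0015), and Mylip, which marks the LDL receptor for degradation, rose by 1.02 ± 0.21 (adjusted p 0.018). Ear1, an eosinophil-associated ribonuclease gene expressed by alveolar macrophages, rose by 1.13 ± 0.22 (adjusted p 0.012), with close family members that may share its reads. Fabp1 rose by 1.27 ± 0.30 (adjusted p 0.048), a call that edgeR did not make. Car4, a carbonic anhydrase of the cell surface, was at 39134.8, 37755.2 and 45910.0 at 2 weeks and at 20794.1, 17650.3 and 18931.8 at 4 weeks, and fell by 1.10 ± 0.19 (adjusted p 0.0041). Scd2, a fatty acid desaturase, fell by 1.52 ± 0.28 (adjusted p 0.0056). Against control, the 4 genes that limma called higher than at 2 weeks did not pass in limma. Abca1, Mylip, Ear1 and Fabp1 had log2 fold changes of -0.22, -0.39, 0.30 and -0.09.

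**Figure D4:**
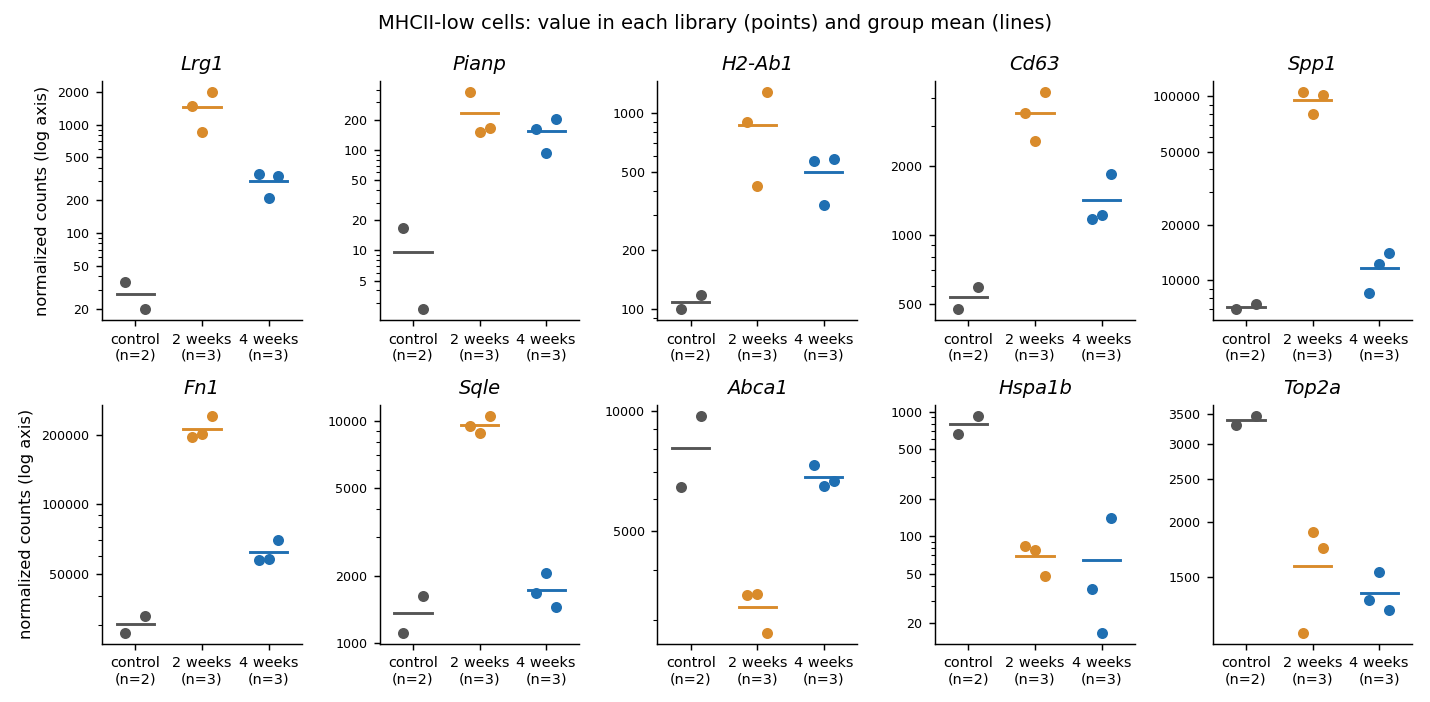
Normalized counts (log axes, which differ between panels) of 10 genes in MHCII-low cells of controls, 2 weeks and 4 weeks after bleomycin; points are libraries and lines group means. By their means Lrg1, Pianp, H2-Ab1, Cd63, Spp1, Fn1 and Sqle are highest at 2 weeks with 4 weeks in between. For Pianp and H2-Ab1 the 2-week and 4-week libraries overlap. Abca1 is lowest at 2 weeks, whereas for Hspa1b and Top2a both bleomycin groups overlap and lie below control.

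Transcripts of other lung cells were present and in part differed between the groups. The 9 alveolar type 2 cell markers summed to 2348 to 4652 normalized counts at 4 weeks and 1722 to 1819 in controls. Of these, 3 (Sftpc, Sftpb and Napsa) were higher at an unadjusted p under 0.05, beside 3.55% of all genes tested. None of the 9 was at 0 in all 5 libraries. Sftpc was at 594.3, 202.9 and 247.3 against 169.4 and 39.6 (1.90 ± 0.60, adjusted p 0.50). The 5 club cell markers summed to 25910 to 35950 against 11905 to 24270, with 0 passing at an unadjusted p under 0.05. B lymphocyte markers summed to 40.5 to 2215 against 131 to 207; the highest value was 4-week replicate 1, where Ighm was at 2126.7, and Pax5 was at 0 in all 5 libraries. The eosinophil markers Prg2 and Prg3 were at 0 in all 5, and the 9 dendritic cell markers summed to 102 to 230 against 317 to 321. The part of these cells in the genes above was not tested. With 4-week replicate 2 alone against both controls, whose share of mitochondrial ribosomal RNA was the closest to theirs, Lrg1 was at 2.95 (adjusted p 0.4), and the cell cycle median was -0.61. With that share as a covariate in limma, Lrg1 (3.39) passed, and H2-Ab1 (1.76, adjusted p 0.17), Cd63 and Pianp did not. In that fit 5 cell cycle genes were lower at an unadjusted p under 0.05, in place of 9, and 0 were higher.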

How the data were processed

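The deposited table holds a signal per gene in normalized counts, per the file headers, as the authors deposited it. Per the submitters' processing notes STAR, DESeq2 and the build mm10 were used, with no versions, roles or settings given in the sources used here. Dividing each column by the worth of 1 read gave whole reads, within about the rounding (0.05), for 100% of the values checked. The highest values were left out of that check. In control replicate 1 a read was worth 0.3895 normalized counts, so the check was weakest there. On the recovered reads edgeR called 2 genes.

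Values were tested with limma 3.58.1 (R 4.3.3) (variance modelled as a trend of the mean) on values taken as log2 with a pseudocount of 1, which understates folds of low genes. The fit had 1 coefficient per group over all 14 libraries and Benjamini-Hochberg adjustment over 15199 genes. It was tested on simulated data first. Between 2 and 3 libraries a single exact permutation test cannot go below a two-sided p of 0.1, so none was used. edgeR 4.0.16, DESeq2 1.42.0 and other scalings, filters and left-out libraries were alternatives.

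Some genes named by the rule, 1 of the 5 that passed among them, are not reported here. Named genes are all that passed, up to 8 in each direction by fold change, up to 2 per list, and a preset group of 11. Members and lists were chosen with earlier results of these data known. Of 382 list genes 338 were tested. RefSeq windows were matched by symbol. Of the table's genes, 42462 were shared with GENCODE vM21 (GRCm38), 90.1% with an identical span.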

Additional observations from a re-analysis of the deposited data

Results flagged for a closer look

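For 5 named genes the 4-week cells differed from the 2-week cells of the same sort by a direct limma test, so that their difference from control was not the same at both times. All 5 were lower at 4 weeks. The log2 differences were -2.22 for Lrg1, -1.28 for Cd63, -3.06 for Spp1, -1.78 for Fn1 and -2.97 for C4b. C4b was at 1226.1, 1417.2 and 2960.1 normalized counts at 2 weeks and 218.7, 210.8 and 231.4 at 4 weeks (adjusted p 0.00029). Over 23 alternatives Cd63, Spp1 and Fn1 passed in 23, and Lrg1 and C4b in 22, with adjusted p up to 0.082 and 0.061. The groups hold 3 or 2 libraries, so single libraries were not screened as outliers.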

How the results depend on the processing

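The 5 genes called against control became 8 with a pseudocount of 5, 54 without a filter (6 higher, 48 lower), 8 with the filter over all 14 libraries, 11 with a filter at 50 normalized counts, 9 in a fit of the 5 libraries alone (4 higher, 5 lower), 13 in a fit of the 8 MHCII-low libraries (6 higher, 7 lower), 22 with quantile normalization, 2 with edgeR, 66 with DESeq2 and 2 with the mitochondrial share as a covariate. Leaving out 1 of the 5 libraries gave 1 to 8, with the lowest without control replicate 3 and 8 without control replicate 1. Chosen after seeing the data, leaving out 4-week MHCII-high replicate 3 gave 13 (and 175 between 4 and 2 weeks), and 4-week replicate 2 alone against both controls gave 3. The causes were not tested. Of the 5 genes of the main fit, 2 were among the 9 of the 5-library fit and 3 among the 13 of the 8-library fit. All 5 were among those called with DESeq2, with quantile normalization, without a filter and with either changed filter. The 2 genes of edgeR were among the 5, and the 4 that voom called were not. With the replicate number as a block the count was 13, of which 5 were those of the unblocked fit. Between 4 and 2 weeks it was 156 in place of 144. Deviations of same-numbered 4-week and control MHCII-low libraries correlated at 0.055 and 0.032. With 2 controls the deviations of 1 mirror those of the other, so these values say little on pairing. Same-numbered MHCII-low and MHCII-high libraries were not compared in this way. The 144 became 297 with DESeq2, 209 in the fit of the 8 MHCII-low libraries and 89 to 127 without 1 library, with 89 without 4-week replicate 2 and 93 without 2-week replicate 3. Itgax turned to -0.04 with quantile normalization and -0.06 with replicate 2 alone. H2-Eb1 ranged from -0.17 (without 4-week replicate 3) to 1.83 (without replicate 2) when 1 library was left out, and turned to -0.52 with the covariate and -1.50 with replicate 2 alone. Over 21 alternatives Lrg1 was called in 18, Pianp in 13, H2-Ab1 and Cd63 in 12 each, Hspa1b in 12 and Hspa1a in 10. List medians ranged from 0.57 to 0.91 for MHC class II, -0.77 to -0.56 for the cell cycle and 0.30 to 0.68 for cholesterol. Of 942 values of named genes under alternatives, 852 kept direction and side of the threshold. As 5 of the 45 named genes passed in the main fit, for most this means staying without a call. Of the other values 32 lost a call, 53 gained one and 5 changed direction. Depth limits low genes, since 3 reads are worth 1.17 to 3.2 normalized counts in the 5 libraries, and intervals of counting error would not include amplification.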

Other observations

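Genes outside the lists and the naming rule, picked after their values were seen because an alternative analysis called them, included some at higher levels than the 5 that passed. Hr, a nuclear corepressor gene, was read at 6009.8, 4640.3 and 5857.5 normalized counts at 4 weeks and at 1683.2 and 2516.4 in controls (log2 fold change 1.41 ± 0.26, limma adjusted p 0.055). Hs3st3b1, a heparan sulfate sulfotransferase gene, was at 1373.0, 1550.0 and 1778.4 against 456.1 and 631.9 (1.54 ± 0.34, adjusted p 0.16). Ppp1r9a, an actin-binding scaffold gene, was at 1673.1, 1395.1 and 1208.0 against 3075.0 and 3703.6 (-1.26 ± 0.24, adjusted p 0.058). Rgl1, a Ral exchange factor gene, was at 768.4, 617.7 and 565.1 against 1638.0 and 1907.8 (-1.45 ± 0.40, adjusted p 0.33). For these 4 genes all 4-week libraries lay on 1 side of both controls, and none passed in the fit of all 14 libraries. Rab11fip5, a recycling endosome gene, was high in 4-week replicate 2 alone, at 4453.0, where the other 4-week libraries held 1247.7 and 1136.5 and the controls 704.3 and 674.1.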
